A study of Mus musculus with 13 samples.

Results

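Wnt signaling in the skin of newborn mice was examined through the genes that send, receive, block and answer the signal. The members were all genes whose symbol is Wnt, Fzd, Dkk or Sfrp followed by a digit, together with Lrp5, Lrp6, Axin1, Axin2, Lef1, Tcf7, Tcf7l1, Tcf7l2, Ctnnb1, Wif1, Notum, Rspo1, Rspo2, Rspo3, Rspo4, Znrf3 and Rnf43. This rule used no measured value and gave 54 of the 49315 genes counted. RNA sequencing had been done on full-thickness back skin at postnatal day 4 (P4), with 1 library from each of 3 wild-type (WT) mice and each of 3 double mutant (DKO) mice, which the series describes as littermates. DKO mice were K14Cre+ Kctd1fl/flKctd15fl/fl, so that both KCTD1 and KCTD15, which inhibit AP-2 transcription factors and have been linked to beta-catenin in cultured cells, were targeted by a Cre recombinase driven by the keratin 14 promoter. That promoter is active in keratinocytes, and fibroblasts, fat, muscle and vessels in the same piece of skin are outside its usual reach. Whether the WT mice carried Cre or floxed alleles is not given in the labels. Another 7 libraries of epidermis were not analysed here, because every count in their tables was 0.

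Wnt proteins are secreted, lipid-modified ligands that bind Frizzled receptors, together with the co-receptors LRP5 and LRP6 where the signal runs through beta-catenin. Without a ligand, beta-catenin is held by the scaffold proteins AXIN1 and AXIN2 and degraded, and with it beta-catenin enters the nucleus and works with the DNA-binding factors LEF1 and TCF7, TCF7L1 and TCF7L2. Secreted proteins of the SFRP and DKK families, WIF1 and the Wnt deacylase NOTUM limit the signal, whereas R-spondins raise it by keeping the ubiquitin ligases ZNRF3 and RNF43 from removing Frizzled receptors. In skin the pathway is best known for hair placode formation, for the hair-forming matrix of growing follicles and for dermal papilla function, and P4 lies in the first growth phase of mouse hair.

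The 6 skin libraries held between 11263863 and 17643043 counts assigned to genes, so that 3 counts, the limit set by a count of 0, stood for 0.17 to 0.266 CPM (counts scaled to library size). Kctd1 and Kctd15 could not check the labels, since a gene's count covers all its exons and not the floxed exon alone, and both had higher normalised counts in every library labelled DKO (Kctd1 432 ± 19.0 in WT and 742 ± 240 in DKO, Kctd15 745 ± 15.5 and 1321 ± 189; SD, n = 3). Directions below therefore rest on the labels. The sebaceous gland forms from the K14 lineage. Of 10 of its markers, 8 were lower in the libraries labelled DKO at an unadjusted p under 0.05 by edgeR. Among all genes tested, 2.54% were lower at that threshold. The sums of the markers were 513 to 610 RPKM in WT and 219.5 to 440 RPKM in DKO. These markers were chosen with earlier results of these data known, so they are no independent check of the labels. Levels are given as RPKM, here normalised counts scaled to library size and to the length of the counted exons in kilobases, and differences as log2 fold changes of DKO over WT with their standard error (SE). With whole skin, fewer cells of a type and less RNA per cell cannot be told apart.

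Ctnnb1, encoding beta-catenin, had by far the highest level, with 155, 146 and 136 RPKM in the WT libraries and 117, 148 and 129 RPKM in the DKO libraries. At the other end, Wnt1 had a single count in all 6 libraries together. Of the 54 members, 47 had enough counts to be tested, and the 7 that did not were Wnt1, Wnt7a, Wnt8a, Wnt8b, Wnt9b, Fzd9 and Dkk1. Summed over all 54 members the level was 652, 652 and 661 RPKM in the WT libraries and 611, 806 and 669 RPKM in the DKO libraries, so that the DKO libraries lay on both sides of the narrow WT range.

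**Figure D1:**
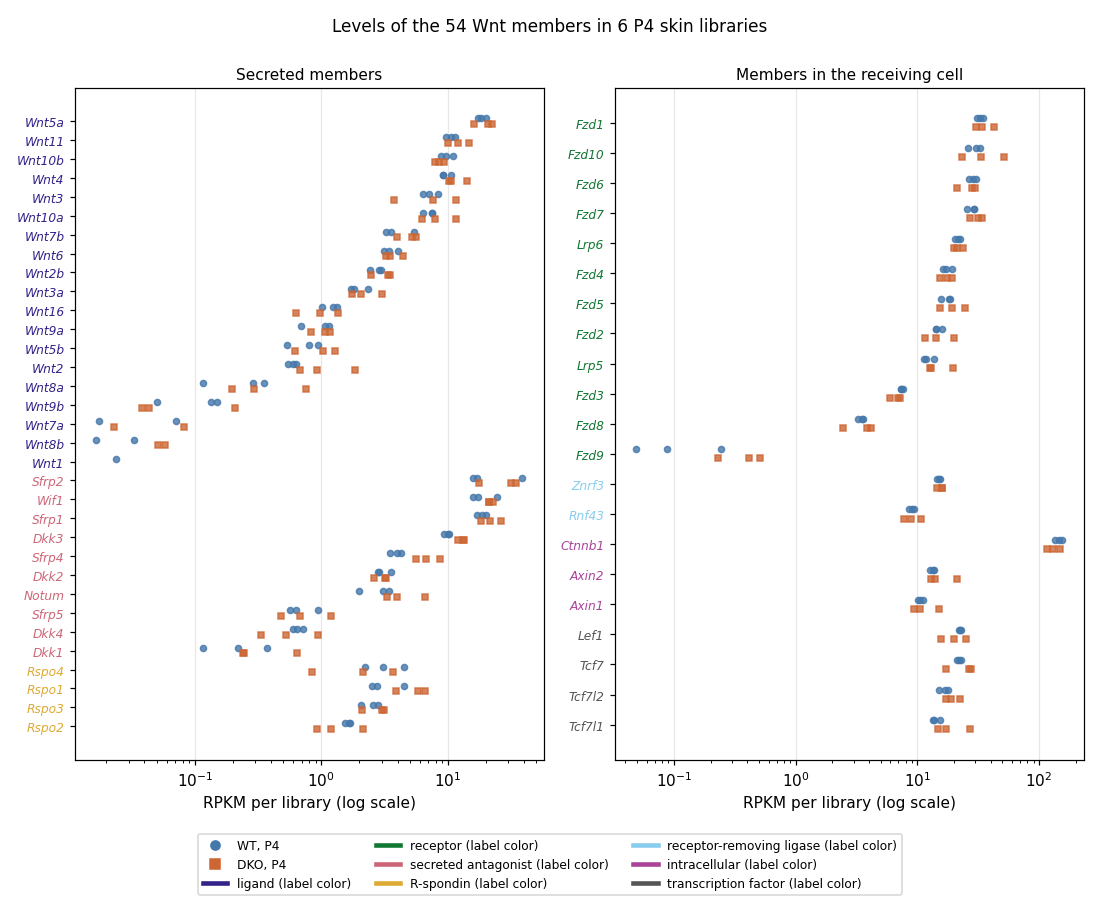
Level of each of the 54 Wnt genes in each skin library, grouped by role, on a logarithmic axis in RPKM; each point is 1 library, WT or DKO, and a value of 0 is not drawn. Ctnnb1 lies highest, at 117 to 155 RPKM, Frizzled receptors lie mostly above the ligands, and WT and DKO points overlap for most genes.

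A change was called where edgeR's quasi-likelihood test gave an adjusted p under 0.05 with a log2 fold change beyond 1 in either direction. None of the 47 tested members was called, and 14 of all 20168 genes were (0.0694%). DESeq2 also called none of the members and called 0.732% of its genes, and its lowest adjusted p for a member was 0.0809 for Sfrp4. At an unadjusted p under 0.05 in the edgeR test there were 5 members, Sfrp4, Dkk3, Rspo1, Notum and Wnt2, all higher in DKO and all coding for secreted proteins, and DESeq2 gave the same 5 and Tcf7l1. Among all genes tested, 7.5% were at that threshold with edgeR, 4.96% higher and 2.54% lower, and 4.44% with DESeq2. Without WT 1 the edgeR count of 5 became 2 of 50 members, beside 904 of all 20758 genes. It became 3 of 49 without WT 2, beside 984 of 20676. Without DKO 1 it became 11 of 48, beside 1529 of 20679. The fold change was above 0 in 36 of the 47 members and in 52.9% of all genes, with a median of 0.15 over the members and 0.02 over all genes. The median over the members was 0.04 without DKO 2, and without that library Rspo4 and Lef1 were lower at an unadjusted p under 0.05 in place of Rspo1 and Notum. That edgeR fit had 5 of 48 members at the threshold, beside 2573 of all 20828 genes.

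The 95% interval of the fold change lay within 1 log2 unit of no change for 38 of the 47 tested members, against 70.8% of all genes. All 20 tested receptors, ligases, intracellular proteins and transcription factors were among the 38, so that doubling or halving of these transcripts lay outside their intervals. Of the 27 tested ligands, antagonists and R-spondins, 18 were. By normalised level, the libraries of both genotypes separated completely for 4 members. Sfrp4, Dkk3 and Wnt2 were higher in every DKO library than in every WT library, and Fzd3 was lower. For Wnt2 the separation depended on the scaling. Over all genes, 7.24% separated upwards and 5.96% downwards.

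**Figure D2:**
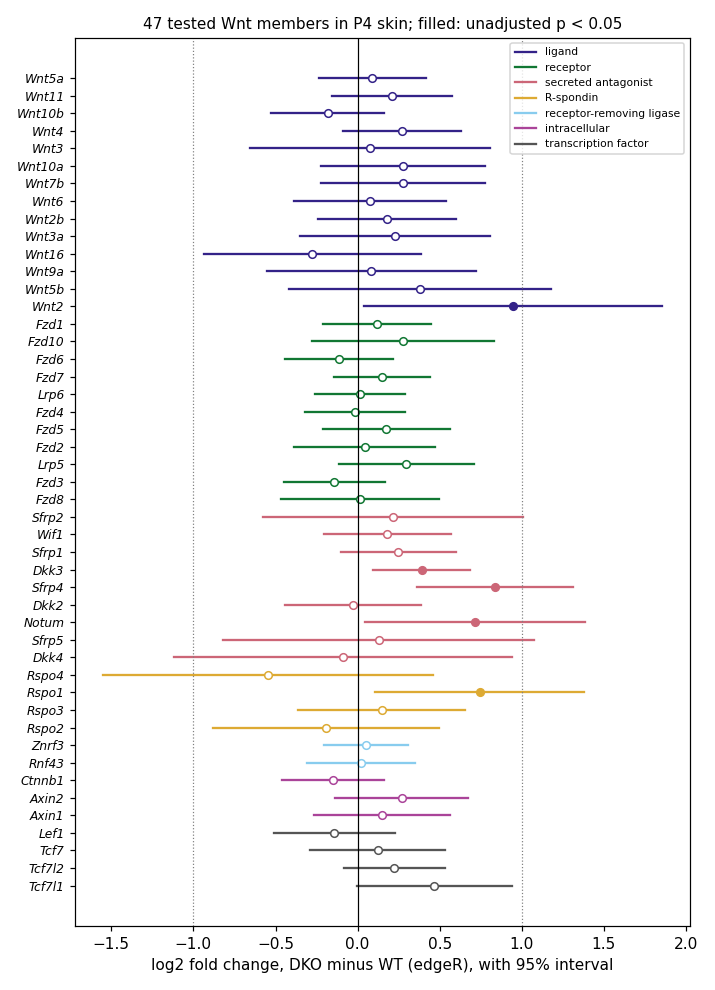
Log2 fold change of DKO over WT for the 47 tested Wnt genes, by role, with the 95% interval from the edgeR fit as bars. Intervals of the receptors and the intracellular genes lie within 1 log2 unit of 0, and the 5 genes at an unadjusted p under 0.05 (Sfrp4, Dkk3, Rspo1, Notum and Wnt2) lie to the right of 0.

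Among the secreted antagonists, 7 of the 9 tested were higher in DKO, with a median log2 fold change of 0.22, and the summed level was 82.9 ± 16.9 RPKM in WT and 100.8 ± 5.70 RPKM in DKO (SD, n = 3). Sfrp4 (ENSMUSG00000021319, chr13:19623175-19632821, GRCm38, plus strand) codes for a secreted protein that carries a Frizzled-like domain and binds Wnt ligands. Its level was 4.28, 3.95 and 3.47 RPKM in the WT libraries and 8.63, 6.66 and 5.64 RPKM in the DKO libraries, so that the lowest DKO library lay above the highest WT library. The log2 fold change was 0.84 (SE 0.211), with an unadjusted p of 0.00287 and an adjusted p of 0.289 by edgeR. Left out one at a time, no library took the fold change outside 0.64 to 0.97 or its unadjusted p above 0.0157. The labels carry one of 2 numbers on each library, and within the pair of libraries that shared one number the log2 ratio was 1.32, against 0.58 among the 4 that shared the other.

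Dkk3 (ENSMUSG00000030772, chr7:112116017-112159057, minus strand), a divergent member of the Dickkopf family whose action on Wnt signaling is less settled than that of DKK1, had the smallest SE of the 5. It had 10.2, 9.27 and 10.1 RPKM in WT and 13.3, 11.99 and 13.4 RPKM in DKO, again without overlap. The log2 fold change was 0.39 (SE 0.131; adjusted p = 0.464 by edgeR), and it was 0.40 and 0.38 within the 2 label numbers. Its unadjusted p was 0.0144 with all libraries and 0.0828 without WT 2.

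Notum (ENSMUSG00000042988, chr11:120653788-120661175, minus strand), which codes for the enzyme that strips the lipid from Wnt ligands and is itself known as a beta-catenin target, had 3.07, 3.41 and 1.99 RPKM in WT and 3.31, 6.61 and 3.98 RPKM in DKO. The groups overlapped, and DKO 2 stood above the other libraries. The log2 fold change was 0.72 (SE 0.299; adjusted p = 0.622 by edgeR), and it was 0.38 without DKO 2. An antisense gene, Notumos, lies over 29.4% of the counted length of Notum, and as the strand setting of the counting is not given, reads of these genes may not have been told apart.

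The most abundant antagonists did not separate. Sfrp2, another Frizzled-related protein and an abundant product of dermal fibroblasts and dermal papilla, had 17.1, 15.8 and 38.8 RPKM in WT and 34.4, 31.4 and 17.6 RPKM in DKO, so that each genotype held high and low libraries. The WT library with 38.8 RPKM and the DKO libraries with 34.4 and 31.4 RPKM were the high ones, and the log2 fold change was 0.22 (SE 0.354; adjusted p = 0.954 by edgeR). Wif1, which binds ligands directly, had 15.9, 17.4 and 24.3 RPKM in WT and 21.2, 21.2 and 22.9 RPKM in DKO, all DKO libraries lying inside the WT range. Sfrp1 had 17.1, 19.9 and 18.7 RPKM in WT and 18.2, 21.4 and 26.5 RPKM in DKO, with 2 DKO libraries above the WT range. Dkk1, the classical antagonist of LRP5 and LRP6 and a known beta-catenin target, had fewer counts than the test required, with 0.115 to 0.372 RPKM in WT and 0.240 to 0.642 RPKM in DKO.

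**Figure D3:**
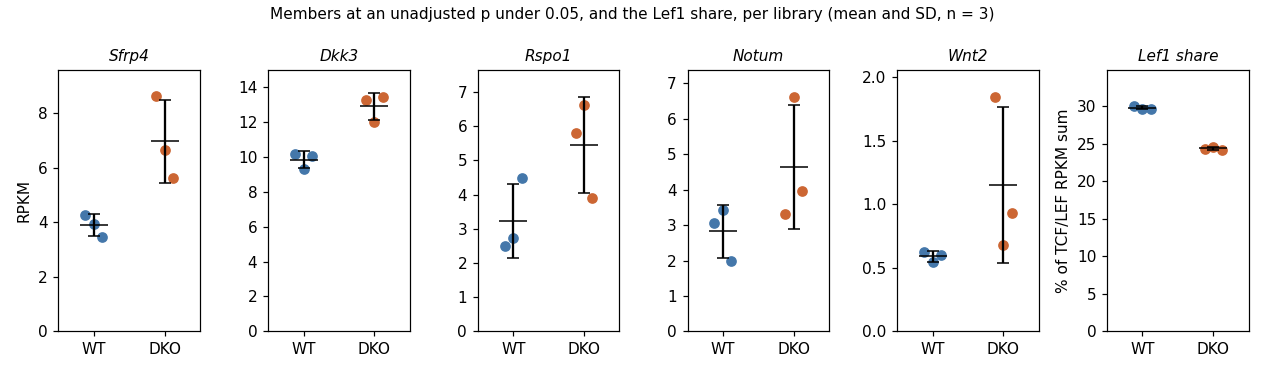
Levels in RPKM of Sfrp4, Dkk3, Rspo1, Notum and Wnt2 in each library, and the Lef1 share in percent of the summed RPKM of Lef1, Tcf7, Tcf7l1 and Tcf7l2; points are libraries and bars the mean and SD of 3 libraries. The DKO points of Sfrp4, Dkk3 and Wnt2 all lie above the WT points, those of Rspo1 and Notum overlap with WT, and the Lef1 share lies near 30% in WT and near 24% in DKO.

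Of the 14 tested ligands 12 were higher in DKO, with a median log2 fold change of 0.19, and 1 of them had an unadjusted p under 0.05. The summed ligand level was 78.0, 79.7 and 79.6 RPKM in WT and 74.2, 102.8 and 84.6 RPKM in DKO, with DKO 1 below and the other two above every WT library. Wnt5a, which signals mostly without beta-catenin, was the highest ligand in each of the 6 libraries. It had 18.3, 17.3 and 20.0 RPKM in WT and 16.1, 20.9 and 22.3 RPKM in DKO, or 20.3 to 26.3% of the ligand sum over all libraries.

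Wnt11, Wnt10b and Wnt4 followed at about 10 RPKM, and their order changed between WT libraries. Wnt10b, a ligand of the hair placode and matrix, had 10.9, 9.66 and 8.79 RPKM in WT and 8.57, 9.40 and 7.90 RPKM in DKO, and it was one of only 2 tested ligands, with Wnt16, whose fold change was below 0. Wnt11 had 10.5 ± 0.875 RPKM in WT, with 9.94, 14.6 and 12.02 RPKM in the DKO libraries. Wnt4 had 9.64 ± 0.845 RPKM in WT and 11.6 ± 2.13 RPKM in DKO (SD, n = 3). None of these differences passed the test, with edgeR adjusted p-values of 0.908 for Wnt10b, 0.899 for Wnt11 and 0.819 for Wnt4. Wnt3, which is made by keratinocytes, had the widest spread of the higher ligands, with 3.74, 11.6 and 7.61 RPKM in DKO around 6.42 to 8.33 RPKM in WT.

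Wnt2 (ENSMUSG00000010797, chr6:17988940-18030585, minus strand), a ligand of mesenchymal tissues, was the ligand with an unadjusted p under 0.05, and it was rare. Its libraries held 21, 22 and 24 counts in WT and 48, 21 and 32 counts in DKO, or 0.625, 0.546 and 0.600 RPKM and 1.84, 0.677 and 0.931 RPKM. By normalised level the DKO libraries lay above the WT libraries, 1 of them by a small margin. WT 1 and DKO 2 both held 21 counts, and DKO 2 had the larger total count, so that their order rests on the scaling. With scaling to total counts, Wnt2 was not at an unadjusted p under 0.05 in the edgeR test. The log2 fold change was 0.94 (SE 0.405; adjusted p = 0.641 by edgeR), and it was 0.44 without DKO 1.

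Frizzled receptors and co-receptors had the median nearest to 0 of the larger groups, with 8 of 11 tested members higher, a median log2 fold change of 0.04 and none at an unadjusted p under 0.05. The 4 highest Frizzled genes lay close together in WT, Fzd1 at 32.8 ± 1.83, Fzd10 at 29.7 ± 3.20, Fzd6 at 28.5 ± 1.67 and Fzd7 at 28.0 ± 2.27 RPKM (SD, n = 3), and neighbours in this order did not differ beyond their spread. In DKO, Fzd1 was 30.1, 42.8 and 34.0 RPKM, around its WT range of 31.2 to 34.8 RPKM. Fzd10 ranged from 23.3 in DKO 1 through 33.2 in DKO 3 to 51.5 RPKM in DKO 2, a range that enclosed all WT libraries. Fzd6 was 28.7, 30.04 and 26.7 RPKM in WT and 21.2, 29.6 and 28.1 RPKM in DKO, with DKO 1 alone below the WT range.

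Fzd3, a receptor best known from planar cell polarity, was the single member lower in every DKO library, with 7.58, 7.28 and 7.29 RPKM in WT and 6.92, 5.98 and 7.15 RPKM in DKO. Its log2 fold change was -0.14 (SE 0.137; adjusted p = 0.928 by edgeR). Lrp6 was near equal at 21.4 ± 1.06 and 21.6 ± 1.91 RPKM, while Lrp5 had 12.3 ± 1.21 RPKM in WT and 15.1 ± 4.07 RPKM in DKO (SD, n = 3), with 19.8 RPKM in DKO 2 and the other DKO libraries inside the WT range. Fzd9 was too rare for the main edgeR test, at 0.0492 to 0.244 RPKM in WT and 0.229 to 0.507 RPKM in DKO. DESeq2 gave it a log2 fold change of 1.56 with an unadjusted p of 0.0568. In 3 alternative edgeR fits it was at an unadjusted p under 0.05. These were with no filter on low counts (beside 2244 of 33677 genes), without WT 2 (984 of 20676) and without DKO 3 (1931 of 20707).

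The 4 R-spondins were all tested and had fold changes of both signs, 2 above and 2 below 0. Rspo1 (ENSMUSG00000028871, chr4:124986430-125009099, plus strand) had 2.49, 2.74 and 4.48 RPKM in WT and 5.81, 6.64 and 3.89 RPKM in DKO, so that 2 DKO libraries lay above all WT libraries and DKO 3 lay below WT 3. The log2 fold change was 0.74 (SE 0.284; adjusted p = 0.545 by edgeR), and it was 0.38 and 1.01 within the 2 label numbers. Rspo4, known for its part in nail formation, went the other way on average, with 2.21, 3.07 and 4.54 RPKM in WT and 0.840, 3.71 and 2.13 RPKM in DKO, and its log2 fold change of -0.55 had an SE of 0.448 and became -0.19 without DKO 1, -0.25 without WT 3 and -1.11 without DKO 2. Within the 2 label numbers that of Rspo4 was -2.43 and 0.15, of opposite sign. Rspo3, the R-spondin of many mesenchymal tissues, had 2.04, 2.57 and 2.79 RPKM in WT and 3.14, 3.01 and 2.08 RPKM in DKO.

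The ligases that R-spondins hold back had log2 fold changes of 0.05 (SE 0.114) for Znrf3 and 0.02 (SE 0.147) for Rnf43. Znrf3 had 15.2, 15.1 and 14.5 RPKM in WT and 14.4, 15.97 and 16.03 RPKM in DKO. Rnf43 had 8.59, 8.99 and 9.40 RPKM in WT and 7.73, 10.7 and 8.93 RPKM in DKO, in both genes with DKO libraries on either side of the WT range.

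Axin2, the most used transcript readout of beta-catenin activity, had 12.7, 13.6 and 13.6 RPKM in WT and 13.999, 21.0 and 13.0 RPKM in DKO. DKO 2 stood well above the WT range, DKO 1 just above and DKO 3 inside it, and the log2 fold change was 0.27 (SE 0.182; adjusted p = 0.874 by edgeR), or 0.03 without DKO 2. Axin1 was likewise highest in DKO 2, with 11.1, 10.5 and 10.1 RPKM in WT and 9.39, 15.1 and 10.5 RPKM in DKO. Ctnnb1, for which messenger RNA says little about the protein because its control lies in degradation, had a log2 fold change of -0.15 (SE 0.139). None of the 14 tested of 16 further genes known as beta-catenin targets had an unadjusted p under 0.05, with 7 higher, 7 lower and a median log2 fold change of 0.02.

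Of the 4 nuclear factors, 3 had fold changes above 0. Tcf7l1, mostly a repressor of the target genes and a marker of follicle stem cells, lay just outside the unadjusted threshold, with 13.8, 15.3 and 13.3 RPKM in WT and 14.7, 26.9 and 17.1 RPKM in DKO and a log2 fold change of 0.47 (SE 0.211; adjusted p = 0.669 by edgeR). Lef1 (ENSMUSG00000027985), the factor of the hair placode and matrix, had 21.8, 22.5 and 22.9 RPKM in WT and 15.7, 25.1 and 20.1 RPKM in DKO, a log2 fold change of -0.14 (SE 0.165; adjusted p = 0.939 by edgeR) that was -0.0042 without DKO 1 and -0.32 without DKO 2. Tcf7, a factor shared with T cells, had 21.8, 21.3 and 22.8 RPKM in WT and 17.1, 27.8 and 26.8 RPKM in DKO. Tcf7l2 had 15.2, 16.8 and 18.01 RPKM in WT and 17.1, 22.3 and 18.9 RPKM in DKO, and for Lef1 and Tcf7 alike DKO 1 lay below every WT library.

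Lef1 held 30.05, 29.7 and 29.7% of the summed RPKM of the 4 factors in the WT libraries and 24.4, 24.6 and 24.2% in the DKO libraries. The sum itself ran from 64.6 RPKM in DKO 1 to 102.1 RPKM in DKO 2. This share was picked out after the values were seen, and it is given with no test. Of the 47 tested members, 10 had shares of their role's sum that separated the genotypes, 5 higher in DKO (Axin1, Axin2, Rspo1, Sfrp4 and Tcf7l1) and 5 lower (Ctnnb1, Dkk2, Fzd6, Lef1 and Rspo4), and since shares of a role add to the whole, a higher share of one member lowers the others. Such shares have no counterpart over all genes; by level, 13.2% of all genes separated in either direction.

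The genes around the members were read from 7 further lists with 85 genes, of which 82 were tested and none was called by edgeR or DESeq2. At an unadjusted p under 0.05 there were 6 in the edgeR test, all higher in DKO, and 51 of the 82 were higher, with a median log2 fold change of 0.04. Of all genes, 7.5% were at that threshold, 4.96% higher and 2.54% lower, and 52.9% had a fold change above 0. Lgr6, an R-spondin receptor and marker of skin progenitors, had 8.14, 9.47 and 10.1 RPKM in WT and 12.9, 12.8 and 13.4 RPKM in DKO, without overlap. Its log2 fold change of 0.49 (SE 0.129) had an adjusted p of 0.302 by edgeR. The others were Gpc3, a cell-surface glypican, at 0.43, Draxin, a secreted inhibitor, at 1.23, the co-repressors Tle1 and Tle2 at 0.44 and 0.56, and Adgra2, a co-receptor for WNT7 ligands, at 0.35. Of the other inhibitors Frzb had 0.74, and of the beta-catenin targets the mesenchymal factors Twist2 and Twist1 had 0.44 and 0.39, all above an unadjusted p of 0.05. The lists of surface co-receptors and of nuclear partners each had 13 higher members, of 15 and 14 tested. Scaffold and Dishevelled genes were even, with 9 higher and 12 lower of 21, Nkd2 at -0.30 and Apc2 at 0.34 having the lowest p-values there. In planar polarity 3 of 9 were higher, with Daam1 at -0.22 and Prickle1 at -0.05, and the secretion genes Porcn and Wls had 0.26 and -0.12.

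**Figure D4:**
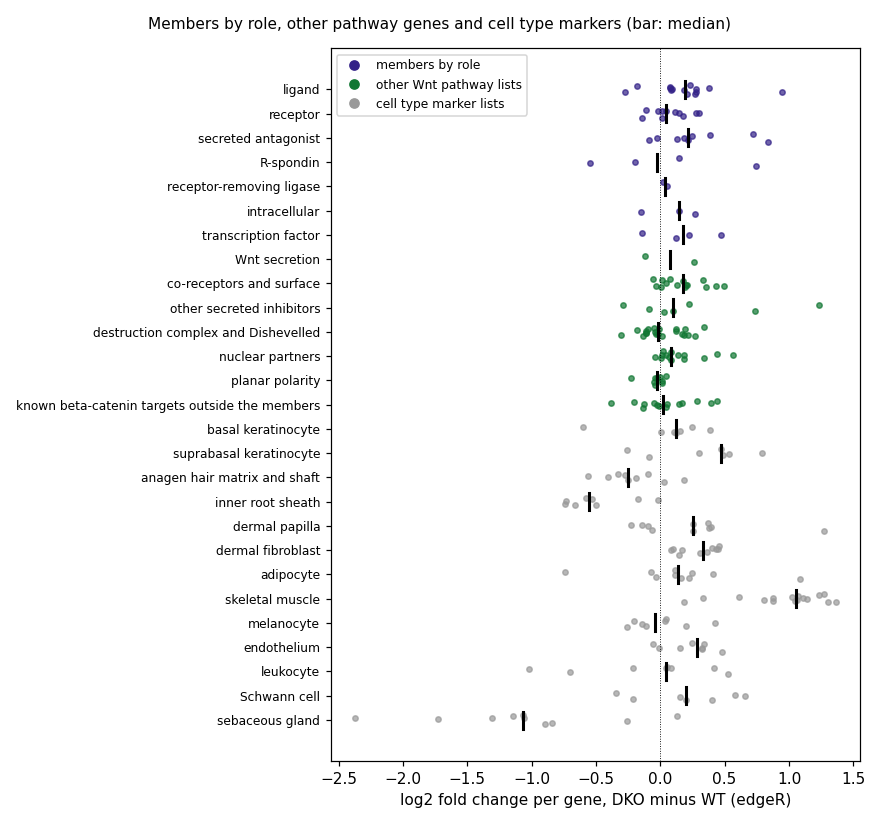
Log2 fold change of DKO over WT for each tested gene of the Wnt member roles, the other Wnt pathway lists and the cell type marker lists, 1 point per gene, with the median of each list as a bar. Points of the Wnt lists lie around 0, while the skeletal muscle list has a median of 1.06 and the sebaceous gland list a median of -1.06.

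Members varied more among DKO than among WT libraries. The SD of the log2 level was larger in DKO for 40 of the 47 tested members (85.1%), compared with 74.3% of all genes, with a median SD over the members of 0.123 in WT and 0.307 in DKO, and over all genes of 0.153 and 0.28. DKO 2 was the highest of the DKO libraries for 61.7% of the members (40.1% of all genes) and DKO 1 the lowest for 55.3% (33.9% of all genes). The full order DKO 1, DKO 3, DKO 2 was seen in 20 members, or 42.6%, and in 24.2% of all genes.

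Of the 13 cell type lists, the sums of hair matrix, basal keratinocyte, inner root sheath, melanocyte and sebaceous gland genes varied in the same order. Those of adipocyte, skeletal muscle, endothelium, Schwann cell and dermal papilla genes were highest in DKO 1. The adipocyte sum, for example, was 1017, 505 and 413 RPKM in DKO 1, 2 and 3. The remaining lists were lowest in DKO 3. The summed level of 10 genes of the hair matrix and shaft was 758 to 783 RPKM in WT and 246, 1002 and 657 RPKM in DKO 1, 2 and 3. That of 7 basal keratinocyte genes was 1166 to 1229 RPKM in WT and 1036, 1775 and 1187 RPKM in DKO, and that of 8 inner root sheath genes was 4472 to 5079 RPKM in WT and 1838, 4362 and 3198 RPKM in DKO. The parts of follicle and epidermal content in the members' values were not tested.

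Other lists moved with genotype beside the members. All 16 skeletal muscle genes were higher in DKO, 12 of them at an unadjusted p under 0.05, with sums of 700 to 802 RPKM in WT and 1206 to 2312 RPKM in DKO. DESeq2 called 9 of them, Acta1, Ckm, Des, Myh8, Neb, Ryr1, Tnni2, Tnnt3 and Ttn, and edgeR none. In the sebaceous gland list DESeq2 called Scd1, Far2, Dgat2l6, Awat1 and Elovl3, all lower, and edgeR none. All 8 inner root sheath genes had fold changes below 0, 3 of them at that threshold, with sums that did not overlap. In the suprabasal keratinocyte list 3 of 7 genes were higher at that threshold, with sums of 2037 to 2253 RPKM in WT and 2726 to 3462 RPKM in DKO. All 10 dermal fibroblast genes had fold changes above 0, 2 of them at that threshold, with a median of 0.33 and overlapping sums, and the dermal papilla list had 6 of 10 above 0 with sums of 109 to 118 RPKM in WT and 106 to 133 RPKM in DKO. Suprabasal keratinocyte genes had a median of 0.48, endothelium 0.29, Schwann cells 0.20, adipocytes 0.14, leukocytes 0.05 and melanocytes -0.04 on the log2 scale. Among the adipocyte genes DESeq2 called Cfd, encoding the secreted protease adipsin, higher (adjusted p = 0.0438), and edgeR did not (log2 fold change 1.09, adjusted p = 0.379). The part of these lists in the higher Sfrp4, Dkk3, Rspo1, Notum and Wnt2 levels was not tested. Leaving the muscle genes out of the library sizes changed the scaling alone and does not test the part of any cell type. In that edgeR fit 6 members were at an unadjusted p under 0.05, the same 5 and Tcf7l1, beside 1515 of all 20168 genes.

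**Figure D5:**
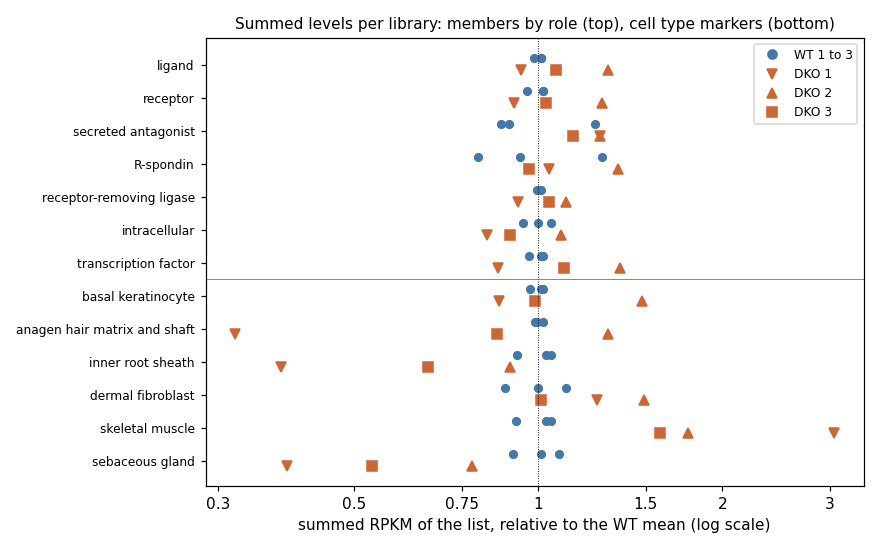
Summed RPKM of the Wnt member roles and of cell type marker lists in each library, divided by the WT mean of the same list. The DKO 1 library lies below and DKO 2 above WT for receptors, transcription factors and hair matrix genes, and the skeletal muscle sum lies above WT in all 3 DKO libraries.

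Promoters were read because KCTD1 and KCTD15 bind AP-2 factors, which recognise the letters GCCNNNGGC, and because the pathway acts back on its own genes through TCF/LEF sites. Windows of 250 bases before to 50 bases after a start site came from RefSeq (GRCm38.p6) and were present for 35 of the 54 members. Sfrp4, Dkk3 and Notum were among the members without a window, so their promoters were not searched. TCF/LEF letters (CTTTGAA or CTTTGAT, or the forms CTTTGTA or else CTTTGTT, on either strand) were in the windows of 7 members, Dkk1, Fzd7, Lef1, Tcf7l2, Wnt3, Wnt5b and Wnt11, or 20%, against 18.9% of all genes. AP-2 letters were in those of 16 members, or 45.7%, against 18.5% of all genes, and the members' windows were 66.5% G or C against 53.8% overall. Stretches are shown for Lef1, whose share separated the genotypes, Wnt11 and Wnt10b, which are among the higher ligands, Wnt2, the rare ligand with the larger fold change, and Ctnnb1, with the matched letters in capitals, 5′ to 3′ on the gene's strand.
Lef1, TCF/LEF letters read on the other strand, chr3:131156137-131156163, plus strand: aacctcagaaTACAAAGtaggattgca
Wnt11, TCF/LEF letters read on the other strand, chr7:98835051-98835077, plus strand: acgtgggcggATCAAAGcgacggtccg
Wnt10b, AP-2 letters, chr15:98778167-98778195, minus strand: gggtggggatGCCCCGGGCtctgggaggg
Wnt2, AP-2 letters, chr6:18030482-18030510, minus strand: gggcgaggcgGCCCCGGGCtgccctttat
Ctnnb1, AP-2 letters, chr9:120933522-120933550, plus strand: gtcctgtgaaGCCCGCGGCccggggaggc
The Lef1, Wnt2 and Ctnnb1 stretches lie inside the gene's annotated span, before an internal start site, and those of Wnt11 and Wnt10b lie outside it, before the first start. Wnt2 and Wnt10b hold the same 9 letters. Their log2 fold changes of 0.94 and -0.18 were not called (adjusted p = 0.641 and 0.908 by edgeR), and a link to the letters was not tested. Such matches describe the sequence and do not show that a factor binds there.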

How the data were processed

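Full-thickness back skin of 3 WT and 3 DKO mice at P4 was compared, with groups taken from the sample labels. The authors trimmed reads with Trimmomatic 0.36, aligned them with STAR 2.5.2b to GRCm38 and deposited whole-number counts per gene from featureCounts (Subread 1.5.2); the strand setting is not given in the sources used here. From these counts, edgeR 4.0.16 (R 4.3.3) was run with filterByExpr, TMM scaling, the quasi-likelihood test and Benjamini-Hochberg adjustment over all 20168 tested genes. A call required an adjusted p under 0.05 and a log2 fold change beyond 1 in either direction, the study's thresholds. DESeq2 1.42.0, the study's tool, was the main alternative. On simulated data with 100 genes changed by log2 2 and 100 by log2 1, edgeR recovered 93 and 54, with 2 others of 20013. These counts used the adjusted p under 0.05 alone, and recovery with the fold-change threshold was not tested. All genes were simulated with the same spread between mice in both groups (common dispersion 0.0401). In the real libraries the median SD of the log2 level over all genes was 0.153 in WT and 0.28 in DKO. Recovery at that uneven spread was not tested. Depth was 11263863 to 17643043 counts, and the limit for a count of 0 covers counting error only. Each library is 1 mouse. The p-values set the difference between the groups against the variation between these mice, estimated with information shared across genes. The main test took the mice as independent.

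The members, the pathway lists and the 13 cell type lists were chosen with earlier results of these data known. Values were named by rule: the 3 highest members of each role, all members at an unadjusted p under 0.05 by edgeR, and genes of the other lists called by either tool. The rule also took the 2 genes of lowest p in each other list, which for cell type lists are named only where called. Names beyond the rule (among them Fzd3, for its separated groups, and Wnt3, Wnt4, Lrp5, Lrp6, Dkk1, Fzd7, Fzd9, Tcf7l1 and Adgra2) were chosen after their values were seen. Exons of 11 members overlap a gene on the other strand, among them Lef1, Ctnnb1, Axin2, Sfrp2, Wnt5a and Tcf7l1. The 7 epidermis tables were not used, as all counts are 0.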

Additional observations from a re-analysis of the deposited data

How the results depend on the processing

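No member and no other Wnt pathway gene was called under any alternative run. Over all genes the 14 calls became 151 with DESeq2, 22 with scaling to total counts, 210 with no filter on low counts and 9 among the 4 libraries that share a label number (an alternative chosen after seeing the data). Leaving out 1 library gave 2 to 36 calls (3 without WT 1, 2 without WT 2 or without WT 3, 36 without DKO 1, 33 without DKO 2, 4 without DKO 3). Members at an unadjusted p under 0.05 in the edgeR fit, 5 in all, ranged from 2 without WT 1 and 3 without WT 2 to 11 without DKO 1. The same fits gave 904, 984 and 1529 genes over the whole set. Sfrp4 was among the members at that threshold under every alternative run. Some fold changes changed sign. With 1 library left out, the range was -0.082 to 0.26 for Axin1, -0.030 to 0.21 for Fzd1, -0.067 to 0.49 for Fzd10 and -0.11 to 0.11 for Rnf43 (each lowest without DKO 2 and highest without DKO 1), -0.20 to 0.0053 for Fzd6 (likewise), -0.018 without WT 2 to 0.74 without WT 3 for Sfrp2 and -0.0038 without DKO 3 to 0.21 without DKO 1 for Wnt5a. Rnf43 was -0.026 with total counts and -0.0064 with no filter, and among the 4 libraries of a label number Lef1 was 0.0067 and Rspo4 was 0.12. In all, 188 of 192 fold changes of 24 members kept their sign with all libraries or within the label number, and 136 of 144 with 1 library left out. With the label number as a replicate block in edgeR, 35 genes (0.174%) and no member were called. At an unadjusted p under 0.05 there were 6 members, beside 1805 of all 20168 genes. The lowest adjusted p of a member in that edgeR fit was 0.213 (Sfrp4). Deviations of same-numbered WT and DKO libraries correlated at -0.0194 to 0.23, all above those of differently numbered libraries at -0.152 to -0.104. As the labels do not say what the number marks, the main test left it out, and any grouping it marks is ignored there. The depth of 11263863 to 17643043 counts leaves rare ligands with few counts, 19 in the lowest library for Wnt5b and 21 for Wnt2.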
